A study of Mus musculus with 18 samples.

Results

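The tumors injected with PS473@NKMOF-101-[Mn], an RNA enzyme against the mRNA of PD-L1 carried inside a manganese framework, were compared with tumors injected with PBS alone. The 6 tumors were 3 of each group, chosen by their sample titles from 18 tumors in 6 groups. All were B16F10 melanomas, a pigmented mouse melanoma line, grown under the right flank skin of C57BL/6 female mice with no engineered allele named, so every group shared the line, the host and the site. Injections into the tumor began on day 6, at a volume of about 50 mm3, and were repeated every 2 days, and the tumors were taken 48 hours after the last one. The other 4 groups received Free PS473, PS473@CPs (the ribozyme on cationic polymers), NKMOF-101-[Mn] (the framework with no RNA in it), or M5@NKMOF-101-[Mn], which holds a mutant of the ribozyme without activity. The titles of the 3 PS473 framework samples write the framework number as 102 where all other text of the series has 101. The age of the mice is not given in the sources used here. Since the labels name no more than a tumor and its number, p-values and standard errors rest only on the spread between tumors within the 6 groups.

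PD-L1, encoded by Cd274, is a surface protein that binds PD-1 on T cells and holds back their attack. Tumor cells raise it mainly when interferon-gamma activates the JAK kinases, and the factor IRF1 is induced along the way. Foreign or misplaced RNA is read inside cells by RIG-I, MDA5 and LGP2, and DNA by cGAS, which signals through STING and responds more readily in the presence of manganese. Both routes lead to type I interferon and to a shared program of antiviral genes.

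A design of the ribozyme and its site in the mRNA are shown because the site is the target of the treatment. PS473 is a Pistol ribozyme, a small RNA that folds around its substrate and cuts it at a GU step. The study's sequence table gives the following RNA of 52 bases, in which capitals mark the 2 stretches that pair with the substrate, of 4 and 10 bases. Versions with a longer 3′ stretch are listed by the study as well. From these the paper chose PS473-16, with 16 base pairs to the substrate, and used the name PS473 for it from then on. The labels name no version, so the shorter design shown here may not be the RNA that was injected.
PS473: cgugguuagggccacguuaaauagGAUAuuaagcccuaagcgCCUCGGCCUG
The 16-base site of this shorter design lies in coding exon sequence of Cd274, at chr19:29380372-29380387 on the plus strand of GRCm38. It is in exon 4 of the 7 exons of the GENCODE M21 transcript. The G of the GU step is base 473 of the 873-base coding sequence. Capitals mark the site in the stretch chr19:29380350-29380409 below.
Cd274 exon 4: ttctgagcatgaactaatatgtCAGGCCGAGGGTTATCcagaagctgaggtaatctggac
Among all GENCODE M21 transcripts, those of 1 gene, Cd274, held the full site.

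Gene expression was deposited as FPKM, fragments scaled by gene length and by library size, from poly(A)-enriched RNA. Depth recovered from the steps between low values was 19504000 to 20023000 fragments in the PBS tumors and 20438000 to 23647000 in the treated tumors, groups that do not overlap. Several tumors stood apart from the others of their group. PBS tumors 2 and 3 held skin epidermis genes (mean log2(FPKM + 1) over the 35 epidermis markers of 5.57 and 4.25), against 0.21 in PBS tumor 1 and 0.19, 2.76 and 0.58 in the treated tumors. Treated tumor 2 had the highest mean levels of interferon-stimulated, T cell and cytotoxic cell genes of the 6, and the lowest hemoglobin level. Treated tumor 3 was low in genes shorter than 300 bases, with a mean log2(FPKM + 1) of 1.83 over 514 such genes against 2.78 to 2.96 in the other 5 tumors. Across all genes, the root mean square log2 difference was 0.38 to 0.77 between pairs of PBS tumors, 0.41 to 0.60 between pairs of treated tumors and 0.35 to 0.82 between tumors of different groups. The pair of tumors most alike, at 0.35, was PBS tumor 1 and treated tumor 1.

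Of the 12357 genes whose mean over the 18 tumors reached 1 FPKM, 0 passed an adjusted p under 0.05 with a change beyond 2-fold, in either direction, and 0 passed it at any fold (limma on log2(FPKM + 1), Benjamini-Hochberg adjustment). The smallest adjusted p was 0.993, so every fold change given here is an estimate that missed this test, on a scale that understates the change of genes at low FPKM. An unadjusted p under 0.05 was met by 260 genes (2.10%), of which 124 (1.00% of all tested) had higher and 136 (1.10%) lower estimates in the treated tumors. This split of 47.7% higher became 281 higher and 94 lower (74.9% higher) after quantile normalization and was 119 and 137 after upper-quartile scaling. It also moved with single tumors, to 200 higher and 42 lower (82.6%) without treated tumor 3 and 159 and 391 (28.9%) without treated tumor 2. All 3 treated tumors lay above all 3 PBS tumors for 339 genes (2.74%) and below them for 237 genes (1.92%). Over all tested genes the median change was -0.01 on the log2 scale, and the median standard error was 0.15. For 10974 genes, 88.8% of those tested, the 95% interval of the change lay within 2-fold either way.

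**Figure D1:**
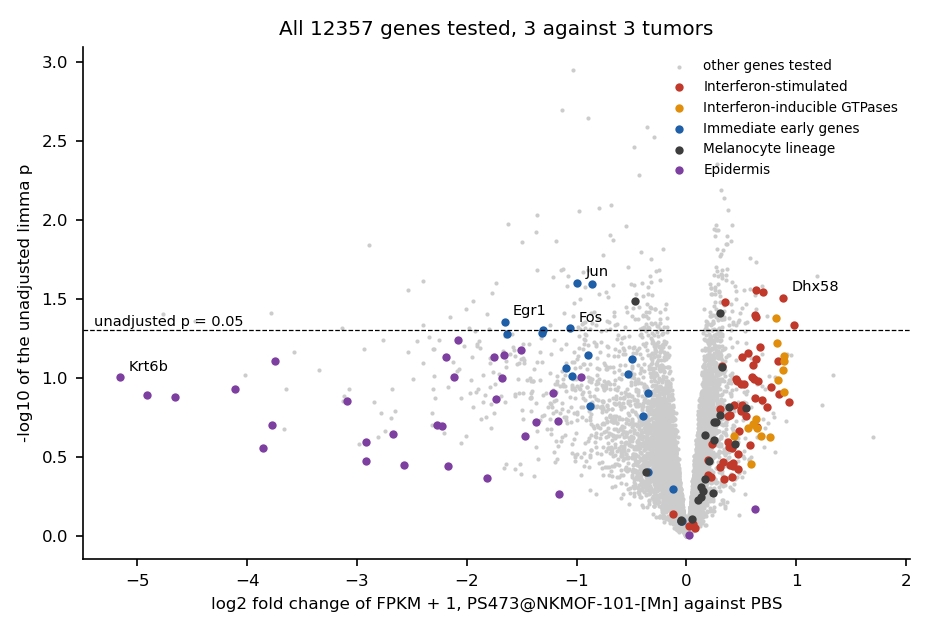
Log2 fold change of PS473@NKMOF-101-[Mn] against PBS (x axis, on the log2(FPKM + 1) scale) and the negative log10 of the unadjusted limma p (y axis) for 12357 genes, with 5 gene lists in color and a dashed line at the unadjusted threshold of 0.05. Interferon-stimulated genes and interferon-inducible GTPases lie mostly to the right of 0, immediate early genes and epidermis genes mostly to the left, and none of the genes passed the adjusted threshold.

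Cd274, the target of the ribozyme, measured 21.5, 15.7 and 12.3 FPKM in the PBS tumors and 17.0, 32.9 and 9.74 FPKM in the treated tumors. The treated group held both the highest and the lowest of the 6 values. The means were 16.5 ± 4.64 FPKM (SD, n = 3) in PBS and 19.9 ± 11.9 FPKM (SD, n = 3) in treated tumors, a log2 fold change of 0.13 ± 0.34 (SE, n = 3) with a 95% interval of -0.59 to 0.85 and an adjusted p of 0.993 (limma). The direction turned to -0.30 without treated tumor 2 and to -0.05 without PBS tumor 3, and without treated tumor 3 the value was 0.53. A 2-fold lower or higher level in the whole tumor lies outside this interval. In bulk tissue, fewer cells of a type and less RNA per cell cannot be told apart, here and for every gene that follows.

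Among 16 tested genes of PD-L1 control, Cd274 included, the median log2 fold change was 0.06, with 9 estimates above 0 and 7 below, where 46.4% and 53.6% of all tested genes lay. Irf1, an interferon-induced factor that acts on the Cd274 promoter, measured 18.6, 15.8 and 14.8 FPKM in the PBS tumors and 20.6, 40.9 and 12.7 FPKM in the treated tumors, where treated tumor 3 was the lowest of the 6. Myc, a transcription factor of proliferation, was also lowest in treated tumor 3, at 20.9 FPKM against 36.5, 39.9 and 38.7 FPKM in PBS. The interferon-gamma receptor genes Ifngr1 and Ifngr2 had log2 fold changes of -0.21 and 0.06, and the kinases Jak1, Jak2 and Tyk2 had -0.06, -0.02 and 0.14. Cops5 and Stub1, which act on the stability of the PD-L1 protein, had -0.07 and 0.05.

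Genes of RNA sensing had higher estimates for the sensors than for their adaptors. Of 21 tested genes of RNA sensing, 19 had higher estimates and 2 lower ones, and the median was 0.38. The 6 sensors had a median of 0.66 and the 5 adaptors 0.10. An unadjusted p under 0.05 was met by 5 of the 21 (1.00% of all tested genes in that direction), and 4 had all treated tumors above all PBS tumors (2.74% of all). Rigi, which encodes the RIG-I sensor of RNA ends, measured 4.29, 4.27 and 4.14 FPKM in the PBS tumors and 5.95, 12.5 and 5.55 FPKM in the treated tumors. Ifih1, encoding the long double-stranded RNA sensor MDA5, measured 3.24, 3.44 and 3.26 FPKM in the PBS tumors and 4.63, 9.41 and 4.03 FPKM in the treated tumors. For Dhx58, encoding LGP2, a regulator of both, the values were 6.18, 4.81 and 4.29 FPKM in the PBS tumors and 7.48, 19.7 and 6.86 FPKM in the treated tumors. In all 3 genes treated tumors 1 and 3 lay above every PBS tumor by a small step, and treated tumor 2 stood far higher. The log2 fold changes were 0.70 ± 0.29 (SE, n = 3) for Rigi, 0.63 ± 0.28 (SE, n = 3) for Ifih1 and 0.88 ± 0.37 (SE, n = 3) for Dhx58. Without treated tumor 2 they were 0.37, 0.30 and 0.43, and the median of the 21 genes was 0.08.

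Tlr3, the endosomal receptor for double-stranded RNA, showed the same order, with 2.49, 2.43 and 2.95 FPKM in the PBS tumors and 3.10, 6.10 and 3.05 FPKM in the treated tumors. Oas1a, one of the synthases whose product activates RNase L, measured 9.45, 5.63 and 6.44 FPKM in the PBS tumors and 8.94, 16.8 and 9.86 FPKM in the treated tumors, and here PBS tumor 1 reached into the treated range. Zbp1, a sensor of left-handed nucleic acid, had 13.0, 42.7 and 9.51 FPKM in treated and 12.4, 6.87 and 7.78 FPKM in PBS tumors, also overlapping. The adaptors of the pathway had smaller estimates. Mavs, which relays RIG-I and MDA5 signals, had a log2 fold change of 0.15 with a 95% interval of -0.18 to 0.48, Myd88 had -0.08, and Adar, which edits double-stranded RNA and limits its sensing, had 0.20.

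For the cGAS-STING route, 7 of 14 tested genes had higher and 7 lower estimates, with a median of 0.00. Cgas, the DNA sensor, measured 5.95, 6.03 and 7.49 FPKM in the PBS tumors and 6.36, 7.90 and 4.76 FPKM in the treated tumors, and the groups overlapped. Sting1, its adaptor, measured 8.20, 8.42 and 8.93 FPKM in the PBS tumors and 9.44, 12.9 and 8.64 FPKM in the treated tumors, a log2 fold change of 0.24 ± 0.13 (SE, n = 3). The kinases Tbk1 and Ikbke had -0.07 and 0.02 and the transcription factor Irf3 had 0.03, each with a 95% interval inside 2-fold either way. Irf7, which interferon itself induces, had a larger estimate at 0.84, with 34.8 FPKM in treated tumor 2 and 6.24 to 11.3 FPKM in the other 5 tumors.

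Interferon-stimulated genes had mostly higher estimates. Of 58 tested, 57 were above 0, with a median log2 fold change of 0.49 against -0.01 for all genes, 7 met an unadjusted p under 0.05 (1.00% of all tested genes in that direction) and 7 had all treated tumors above all PBS tumors (2.74% of all). Rigi, Ifih1, Dhx58, Eif2ak2, Zbp1, Oas1a and others also belong to the RNA sensing list, so the counts of these lists are not separate results. Ifit3, which binds viral RNA complexes, measured 7.81, 4.27 and 4.59 FPKM in the PBS tumors and 8.14, 25.9 and 7.09 FPKM in the treated tumors, a log2 fold change of 0.98 ± 0.45 (SE, n = 3), and 0.43 without treated tumor 2. Isg15, a ubiquitin-like protein, measured 44.9, 19.7 and 20.3 FPKM in the PBS tumors and 29.4, 77.2 and 27.0 FPKM in the treated tumors. Ifi35 measured 34.0, 17.9 and 19.7 FPKM in the PBS tumors and 28.8, 53.7 and 30.2 FPKM in the treated tumors, with a log2 fold change of 0.63, and Ifit2 had 0.35. In each of Ifit3, Isg15 and Ifi35 treated tumor 2 was the highest of the 6, as it was for 54 of the 58. Treated tumors 1 and 3 were both above the PBS mean in 23 of the 58. Without treated tumor 2 the median of the list was 0.10, and without that tumor and PBS tumor 2 it was 0.06.

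The antiviral membrane proteins Ifitm3 and Bst2 were the most abundant of the list, at 234 and 211 FPKM on average in PBS and 326 and 284 FPKM in treated tumors, with overlapping groups. Isg20, an antiviral exonuclease, had the one lower estimate, -0.13, from 3.76, 1.601 and 0.905 FPKM in the PBS tumors and 2.03, 1.45 and 1.45 FPKM in the treated tumors. Ifit3b and Tor3a had all treated tumors above all PBS tumors, at 0.67 and 0.33. So did Parp10, an ADP-ribosyltransferase, at 11.4, 10.9 and 10.3 FPKM in the PBS tumors and 13.8, 26.8 and 11.9 FPKM in the treated tumors. Ifit3 and Ifit3b, like the Oas1 and Gbp families, are near copies of each other, and how the counting divided their reads is not given in the sources used here.

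**Figure D2:**
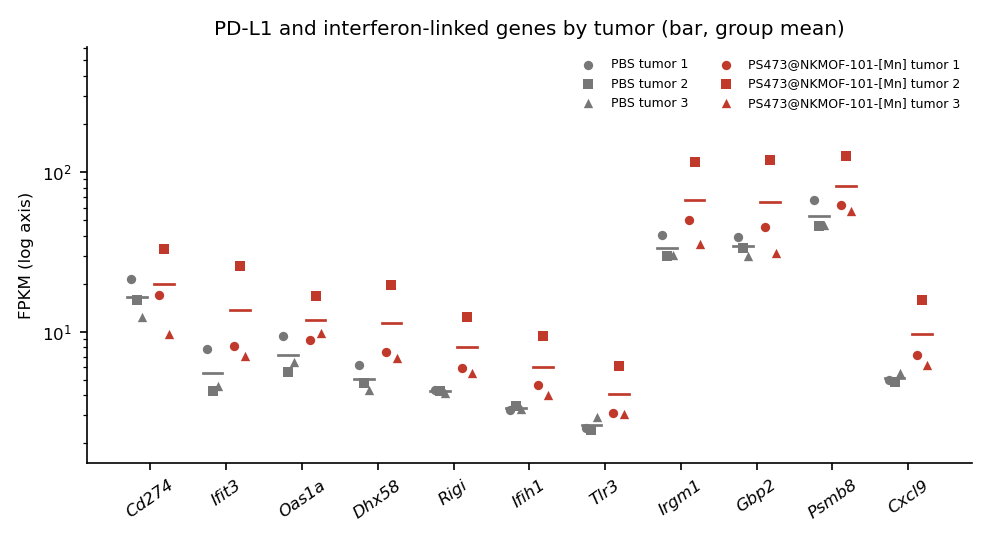
FPKM on a log axis of Cd274 and 10 interferon-linked genes in each PBS tumor (gray) and PS473@NKMOF-101-[Mn] tumor (red), with the tumor number as the symbol and the group mean as a bar. Treated tumor 2 (square) is the highest value of every gene shown, and for Cd274 treated tumor 3 (triangle) is the lowest.

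Promoter windows are shown as background on the sequence of these genes. RefSeq promoters of GRCm38.p6, from 250 bases before to 50 after the start, were matched for 44 of the 58 tested interferon-stimulated genes and searched on both strands for GAAA, any 2 bases and GAAA again, the core that interferon-activated factors bind. It occurred in 22 of the 44 (50.0%), against 3.49% of 27025 promoters. The list was made of genes known to respond to interferon, so this share describes the list and not these tumors. For the interferon-inducible GTPases it occurred in 9 of 10 matched promoters, and for the immediate early genes in 0 of 17. Capitals mark the matches in 80 bases of each of 4 promoters, written 5′ to 3′ on the strand of the gene.
Ifit3, chr19:34583355-34583434, plus strand: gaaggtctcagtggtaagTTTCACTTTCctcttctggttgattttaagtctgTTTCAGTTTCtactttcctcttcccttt
Irgm1, chr11:48871403-48871482, minus strand: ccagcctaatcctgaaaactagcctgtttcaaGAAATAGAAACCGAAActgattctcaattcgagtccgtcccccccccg
Ifih1, chr2:62646206-62646285, minus strand: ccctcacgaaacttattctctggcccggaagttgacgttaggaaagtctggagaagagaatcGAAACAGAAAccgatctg
Rigi, chr4:40239779-40239858, minus strand: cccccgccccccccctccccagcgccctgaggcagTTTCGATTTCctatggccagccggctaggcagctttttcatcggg
Rigi is listed there under its older symbol. The Cd274 window held no match. In Ifih1 and Rigi the match lies past the start. A match describes these letters only, and no binding was measured.

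Interferon-inducible GTPases, which attack the vacuoles of intracellular microbes, had the highest median of any list with at least 10 tested genes, at 0.76, with 15 of 15 estimates above 0 and 0 without overlap between the groups. Irgm1, a regulator of this family, measured 40.3, 29.7 and 30.2 FPKM in the PBS tumors and 50.2, 116 and 35.3 FPKM in the treated tumors, a log2 fold change of 0.82 ± 0.37 (SE, n = 3), and 0.34 without treated tumor 2. Gbp2 measured 39.5, 33.4 and 30.0 FPKM in the PBS tumors and 45.1, 119 and 31.1 FPKM in the treated tumors, and Igtp 45.6, 28.5 and 38.5 FPKM in the PBS tumors and 53.3, 155 and 39.1 FPKM in the treated tumors. All 15 were highest in treated tumor 2, and both other treated tumors were above the PBS mean in 3 of them. The median without treated tumor 2 was 0.13.

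Antigen presentation had the same arrangement. Of 22 MHC class I pathway genes 19 had higher estimates, with a median of 0.33, and the 5 immunoproteasome genes had a median of 0.43 against 0.08 for the 9 heavy and light chains. Psmb10, an immunoproteasome subunit, measured 69.8, 43.3 and 48.3 FPKM in the PBS tumors and 73.7, 111 and 61.5 FPKM in the treated tumors. B2m, the light chain, measured 1687, 1465 and 1529 FPKM in the PBS tumors and 1462, 2779 and 1475 FPKM in the treated tumors, and Tap1, the peptide transporter, 47.1, 41.1 and 41.8 FPKM in the PBS tumors and 53.6, 95.2 and 31.5 FPKM in the treated tumors. Of the 22, 21 were highest in treated tumor 2, and without that tumor the median was -0.03. MHC class II genes, which mark professional antigen-presenting cells, had a median of 0.43 with 9 of 10 higher, and Cd74, their invariant chain, measured 122, 149 and 196 FPKM in the PBS tumors and 190.4, 518 and 123 FPKM in the treated tumors. Without treated tumor 2 that median was -0.02.

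The interferon ligands themselves were near or at the floor of detection. Ifna2, Ifna4 and Ifna5 were listed at 0 in all 6 tumors, and were chosen for this after their values were seen. Ifnb1, the fibroblast interferon, was at most 0.0613 FPKM. Ifng, the lymphocyte interferon, measured 0.0826, 0.191 and 0.316 FPKM in the PBS tumors and 0.175, 1.38 and 0.0809 FPKM in the treated tumors. Treated tumor 2 thus held the one Ifng value above 1 FPKM among the 6. The receptor genes, 5 tested, had a median of 0.06.

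Lymphocyte genes were low in every tumor, and 8 of 26 T cell genes and 2 of 19 cytotoxic and NK cell genes reached the tested mean of 1 FPKM. Cd8a, a coreceptor of cytotoxic T cells, measured 0.327, 0.459 and 0.448 FPKM in the PBS tumors and 0.574, 2.35 and 0.547 FPKM in the treated tumors, with no overlap between the groups. Cd3e, of the T cell receptor complex, measured 0.159, 0.164 and 0.417 FPKM in the PBS tumors and 0.245, 1.19 and 0.332 FPKM in the treated tumors, and Cd4 0.0402, 0.229 and 0.301 FPKM in the PBS tumors and 0.0832, 0.251 and 0.105 FPKM in the treated tumors. Gzmb, a granule protease of killer cells, measured 1.22, 0.763 and 0.994 FPKM in the PBS tumors and 1.06, 6.81 and 1.08 FPKM in the treated tumors, a log2 fold change of 0.70 ± 0.50 (SE, n = 3). Treated tumor 2 had the highest of the 6 values for 18 of the 19 cytotoxic and NK cell genes and 19 of the 26 T cell genes in the table. The 8 tested T cell genes had a median of 0.09, or -0.14 without that tumor, and the regulatory genes Foxp3 and Tnfrsf18 had -0.05 and -0.59. The part of these cells in the interferon gene levels was not tested.

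Chemokines were split, with 11 of 21 higher and a median of 0.01. Cxcl9, a T cell attractant induced by interferon-gamma, measured 4.98, 4.85 and 5.51 FPKM in the PBS tumors and 7.13, 15.9 and 6.21 FPKM in the treated tumors, without overlap. Cxcl10, which shares its receptor, measured 146, 140.1 and 140.2 FPKM in the PBS tumors and 157, 288 and 92.3 FPKM in the treated tumors, and Ccl5 had 0.74. Ccl12, a monocyte attractant, measured 1.72, 1.63 and 0.951 FPKM in the PBS tumors and 2.68, 3.42 and 2.60 FPKM in the treated tumors, without overlap. The neutrophil attractants Cxcl1, Cxcl2 and Cxcl3 had -0.72, -0.68 and -0.87, each with its highest value in PBS tumor 2. Of the inflammatory cytokines, Tnf measured 0.438, 0.589 and 0.478 FPKM in the PBS tumors and 0.384, 0.749 and 0.326 FPKM in the treated tumors and Il6 at most 0.428 FPKM.

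Among checkpoint genes other than PD-L1, 10 of 21 were tested, with a median of -0.05. Lgals9, the galectin ligand of TIM-3, measured 53.9, 62.0 and 61.5 FPKM in the PBS tumors and 64.0, 108 and 80.8 FPKM in the treated tumors, so that every treated tumor was above every PBS tumor, with a log2 fold change of 0.47 ± 0.22 (SE, n = 3), and 0.28 without treated tumor 2. Havcr2, encoding TIM-3, had 0.16, and the ligands Pvr and Cd276 had -0.19 and -0.04. Pdcd1, encoding PD-1, was under the tested mean and measured 0.310, 0.226 and 0.382 FPKM in the PBS tumors and 0.525, 0.800 and 0.392 FPKM in the treated tumors. The groups did not overlap, by a narrow margin at values near the floor of detection. The shares of genes without overlap cover tested genes only, so none stands beside Pdcd1 or Cd8a. Among other untested list genes, Blk of B cells and Ccr3 of eosinophils lay below PBS in all treated tumors.

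Macrophage and monocyte genes had a median of -0.05 over 27 tested. Ly6c2, a marker of inflammatory monocytes that interferon also induces, had the largest higher estimate among genes at an unadjusted p under 0.05, 1.19 ± 0.47 (SE, n = 3), from 0.418, 0.347 and 0.934 FPKM in the PBS tumors and 0.876, 7.41 and 1.77 FPKM in the treated tumors. Treated tumor 1 lay below PBS tumor 3, and without treated tumor 2 the estimate was 0.56. Pf4, a secreted chemokine of platelets and macrophages, measured 10.5, 14.2 and 8.48 FPKM in the PBS tumors and 4.72, 7.14 and 4.61 FPKM in the treated tumors, all below PBS. The general markers Lyz2, Cd68 and C1qa had -0.14, 0.07 and 0.03, and Arg1, an enzyme of alternative activation, had -1.49, with 11.9, 52.6 and 3.30 FPKM in PBS and 3.82, 3.83 and 4.80 FPKM in treated tumors. Dendritic cell genes, 6 tested, had a median of -0.01. The 3 tested immunoglobulin genes had lower estimates, and Ighg2b, an antibody heavy chain, measured 1.06, 0.315 and 0.240 FPKM in the PBS tumors and 0, 0.0974 and 0.0601 FPKM in the treated tumors, without overlap.

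The neutrophil list had a median of -1.32 over 6 tested genes, which was -0.74 without PBS tumor 2 and -2.07 without PBS tumor 1. S100a8, a calcium-binding protein of neutrophils that stressed keratinocytes also make, measured 0.382, 252 and 77.9 FPKM in the PBS tumors and 0, 0.364 and 0 FPKM in the treated tumors, and its partner S100a9 0.400, 209 and 70.5 FPKM in the PBS tumors and 0.277, 0.312 and 0.143 FPKM in the treated tumors. Both had treated values below all PBS values, at log2 fold changes of -4.77 ± 2.11 (SE, n = 3) and -4.47 ± 2.03 (SE, n = 3). That separation rests on values near the floor of detection. PBS tumor 1 and treated tumor 2 had 0.382 and 0.364 FPKM of S100a8, and 0.400 and 0.312 FPKM of S100a9. PBS tumor 1 was almost as low as the treated tumors, and the high values were those of PBS tumors 2 and 3, which also held the epidermis genes. With the epidermis score as a covariate the estimates were -2.22 and -2.01. Fpr2, a chemoattractant receptor of neutrophils, and G0s2 had -0.02 and 0.30.

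Immediate early genes, which growth factor and stress signals switch on within minutes, had lower estimates throughout. Of 19 tested, 19 had lower estimates, with a median log2 fold change of -0.88, 5 met an unadjusted p under 0.05 (1.10% of all tested genes in that direction) and 8 had all treated tumors below all PBS tumors (1.92% of all). Fos, a subunit of the AP-1 transcription factor, measured 114, 140.3 and 90.5 FPKM in the PBS tumors and 69.2, 39.8 and 56.8 FPKM in the treated tumors, a log2 fold change of -1.06 ± 0.49 (SE, n = 3). Its partner Jun measured 85.1, 92.9 and 68.7 FPKM in the PBS tumors and 55.4, 33.7 and 35.3 FPKM in the treated tumors, with -0.996 ± 0.40 (SE, n = 3). For both genes every treated tumor was below every PBS tumor. Junb measured 32.1, 89.9 and 51.3 FPKM in the PBS tumors and 23.2, 29.4 and 23.5 FPKM in the treated tumors and Fosb 23.3, 13.0 and 9.48 FPKM in the PBS tumors and 9.96, 4.51 and 2.90 FPKM in the treated tumors, the latter with an overlap of PBS tumor 3 and treated tumor 1.

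Egr1, a zinc finger factor of the growth response, had the largest lower estimate of the list, -1.66 ± 0.75 (SE, n = 3), from 11.6, 36.3 and 23.2 FPKM in the PBS tumors and 5.54, 9.88 and 4.10 FPKM in the treated tumors. Atf3, which stress kinases and the unfolded protein response induce, measured 13.6, 16.5 and 14.9 FPKM in the PBS tumors and 7.78, 7.88 and 7.75 FPKM in the treated tumors, with little spread inside either group. The feedback genes had a median of -0.71. Dusp1, a phosphatase that shuts off MAP kinases, measured 17.6, 49.9 and 49.3 FPKM in the PBS tumors and 11.5, 17.0 and 12.6 FPKM in the treated tumors, and the lowest PBS tumor lay just above the highest treated one. Ier2 and Ier3 had -0.50 and -0.54 with no overlap, while Dusp6, a target of sustained ERK signaling, was -0.04 with a 95% interval of -0.35 to 0.27. The mean log2(FPKM + 1) over the 21 genes of the list in the table was 3.80, 4.62 and 4.11 in PBS and 3.39, 3.52 and 3.27 in treated tumors.

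**Figure D3:**
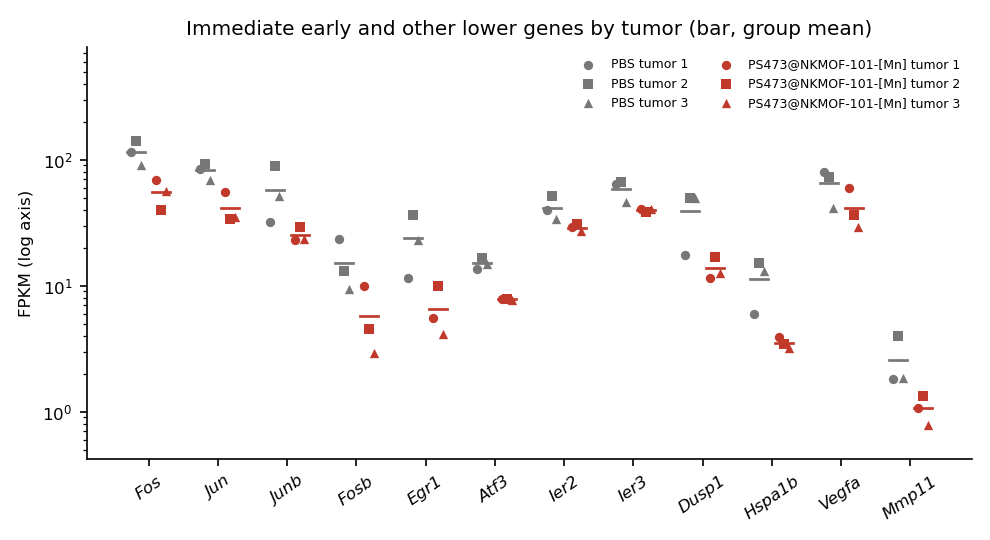
FPKM on a log axis of 9 immediate early genes and of Hspa1b, Vegfa and Mmp11 in each PBS tumor (gray) and PS473@NKMOF-101-[Mn] tumor (red), with the tumor number as the symbol and the group mean as a bar. The groups overlap for Fosb and Vegfa and are separate for the other 10 genes. The figure holds the immediate early genes without overlap, 8 of 19 tested, and leaves out most that overlap, so this separation reflects the choice of genes.

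The median of the immediate early list was -0.67 without PBS tumor 2, which had the highest value of the 6 for 14 of the 19 genes, and between -0.97 and -0.67 when any one tumor was left out. With the epidermis score as a covariate it was -0.41. Side by side, with the same PBS tumors, the medians of the 19 genes were -0.40 for NKMOF-101-[Mn], -0.67 for M5@NKMOF-101-[Mn], -0.60 for Free PS473 and 0.07 for PS473@CPs. The mean level of the list was 3.37 to 3.89 in the M5@NKMOF-101-[Mn] tumors, a range that overlaps both PBS and PS473@NKMOF-101-[Mn].

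Other stress genes were split. Among 12 heat shock genes the median was 0.04, yet Hspa1b, the stress-inducible HSP70, measured 6.00, 15.1 and 13.0 FPKM in the PBS tumors and 3.89, 3.45 and 3.21 FPKM in the treated tumors, all below PBS, with a log2 fold change of -1.37 ± 0.48 (SE, n = 3). The constitutive chaperones Hsp90ab1 and Hspa8 had 0.10 and 0.15. The unfolded protein response had a median of -0.03 over 18 genes, with Hspa5, its main chaperone, at -0.13 (95% interval -0.42 to 0.16). Of the NF-kB targets 12 of 17 had lower estimates, against 53.6% of all tested genes, with a median of -0.27. With the epidermis score as a covariate that median was 0.13. The mean log2(FPKM + 1) of the list was 1.70, 2.45 and 2.30 in PBS and 1.75, 2.08 and 1.73 in treated tumors. Nfkbiz, an inducible cofactor of NF-kB, measured 8.48, 14.2 and 8.44 FPKM in the PBS tumors and 6.46, 8.14 and 1.604 FPKM in the treated tumors, without overlap, and the inhibitor Nfkbia had -0.87. Socs3, the feedback inhibitor of cytokine receptors, was below PBS in all treated tumors by a narrow margin, at 12.0, 24.01 and 13.8 FPKM in the PBS tumors and 11.4, 11.9 and 11.7 FPKM in the treated tumors.

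Glycolysis genes had a median of 0.01 over 14, whereas 11 of 11 other hypoxia targets had lower estimates, with a median of -0.38. Of these 11, 1 met an unadjusted p under 0.05 (1.10% of all tested genes in that direction) and 1 was without overlap (1.92% of all). The median of the whole list of 29 genes was -0.13. It was 0.003 without PBS tumor 1, -0.01 without PBS tumor 2 and -0.01 without treated tumor 2. Vegfa, the vascular growth factor, measured 79.9, 73.3 and 41.5 FPKM in the PBS tumors and 59.1, 36.6 and 29.5 FPKM in the treated tumors, a log2 fold change of -0.63 ± 0.29 (SE, n = 3), and -0.42 without treated tumor 3. Adm, a vasodilator peptide, measured 29.9, 33.9 and 24.8 FPKM in the PBS tumors and 22.3, 20.3 and 19.9 FPKM in the treated tumors, without overlap. Hif1a, the hypoxia factor itself, had 0.02 with a 95% interval of -0.29 to 0.33.

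Genes for handling of manganese and other metals gave no separation. Of 18 tested, 6 were higher and 12 lower, with a median of -0.08 and 0 genes without overlap. Slc39a10 and Slc30a9, metal transporters, had 0.04 and -0.10, Atp2c1, which pumps manganese into the Golgi, had -0.12 (95% interval -0.34 to 0.11), and the metallothionein Mt2 had -0.13. Sod2, the manganese superoxide dismutase, measured 16.2, 16.5 and 20.3 FPKM in the PBS tumors and 17.4, 20.2 and 18.4 FPKM in the treated tumors. The redox list had a median of -0.01 over 22 genes, and Cat, catalase, was above PBS in all treated tumors at 33.2, 33.4 and 37.6 FPKM against 30.5, 29.0 and 32.3 FPKM.

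The pigment genes that define this tumor line were abundant in all 6 tumors. Dct, a pigment enzyme and the most abundant gene of the list, measured 3227, 2342 and 2616 FPKM in the PBS tumors and 2901, 2763 and 2718 FPKM in the treated tumors. Of 22 tested melanocyte lineage genes 18 had higher estimates, with a median of 0.19, and 7 had all treated tumors above all PBS tumors, against 2.74% of all tested genes. Pmel, the fibril protein of melanosomes, measured 1337, 1084 and 1360.0 FPKM in the PBS tumors and 1525, 1482 and 1631 FPKM in the treated tumors, and Gpnmb, a related glycoprotein, 801, 761 and 796 FPKM in the PBS tumors and 1024, 1038 and 859 FPKM in the treated tumors. Their log2 fold changes were 0.30 ± 0.21 (SE, n = 3) and 0.30 ± 0.13 (SE, n = 3). Gpr143, Trpm1, Mlph, Mc1r and Met also did not overlap, at 0.39, 0.45, 0.32, 0.25 and 0.55. Mitf, the master factor of the lineage, had -0.05, and Kit, a receptor tyrosine kinase, had -0.47 ± 0.20 (SE, n = 3) in the other direction, from 1.28, 2.28 and 1.04 FPKM in the PBS tumors and 0.735, 0.602 and 1.06 FPKM in the treated tumors. Without PBS tumor 2 the estimate for Kit was -0.27. The median of the list was 0.07 without PBS tumor 2, which had the most epidermis signal, and 0.07 with the epidermis score as a covariate. Their part in other differences was not tested.

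Medians of the growth and death lists were near 0. The PI3K-Akt list, 30 tested, had a median of 0.01, with Akt1 at 0.18 (95% interval -0.09 to 0.46). Inpp4b, a lipid phosphatase, measured 1.55, 1.79 and 1.82 FPKM in the PBS tumors and 2.07, 2.28 and 2.07 FPKM in the treated tumors, without overlap. Cell cycle genes had a median of 0.08 with 21 of 28 higher, and 0 of them met an unadjusted p under 0.05. Among 24 apoptosis genes the median was 0.07. Bak1, a pore-forming effector of apoptosis, measured 47.2, 46.1 and 52.0 FPKM in the PBS tumors and 56.7, 58.3 and 73.7 FPKM in the treated tumors, a log2 fold change of 0.36 ± 0.11 (SE, n = 3) with an interval of 0.14 to 0.59, and its close relative Bax had -0.04. Casp9, the initiator caspase of the mitochondrial route, measured 4.82, 5.20 and 5.36 FPKM in the PBS tumors and 5.68, 6.45 and 5.82 FPKM in the treated tumors, without overlap, and Casp8 had 0.11.

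Epidermis genes gave the largest difference in mean level of any list, at -2.17, and the widest spread among the PBS tumors, with an SD of 2.80. Of 32 tested epidermis genes 30 had lower estimates, with a median of -2.15, yet 0 met an unadjusted p under 0.05 and 0 were without overlap. The median was -0.89 without PBS tumor 2 and -3.52 without PBS tumor 1. Krt14, a basal keratin, measured 0, 2058 and 666 FPKM in the PBS tumors and 0.162, 75.7 and 4.07 FPKM in the treated tumors, and Krt16, a keratin of wounded skin, 0, 1133 and 308 FPKM in the PBS tumors and 0, 10.0 and 0.159 FPKM in the treated tumors. PBS tumor 1 thus held as little of either as treated tumor 1. Lower estimates beyond 2-fold at an unadjusted p under 0.05 numbered 36, and those named by size were S100a8, S100a9, Sprr2d, Sprr2h, Rptn, Cd24a, Sprr2i, Lce3c, Sprr2e and Klk9, of which the Sprr2 genes, Rptn and Lce3c encode proteins of the cornified skin surface. Of these 10, the treated tumors were all below the PBS tumors for S100a8, S100a9 and Cd24a. For S100a8 and S100a9 the groups were separated only by values near the floor of detection. Cd24a, a surface glycoprotein, measured 4.84, 34.5 and 9.48 FPKM in the PBS tumors and 0.985, 1.44 and 1.30 FPKM in the treated tumors. Rptn, Sprr2i, Sprr2e and Klk9 averaged 3.48, 2.76, 2.12 and 1.79 FPKM over the 18 tumors. Their PBS means were 17.0, 14.8, 9.14 and 7.59 FPKM. They reached the tested mean of 1 FPKM only through the PBS tumors, so the filter itself favored their lower estimates.

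Fibroblast and matrix genes had lower estimates in 26 of 27, with a median of -0.65. Col1a1, the main fibrillar collagen chain, measured 25.8, 292 and 112 FPKM in the PBS tumors and 36.7, 107 and 25.4 FPKM in the treated tumors, and 25 of the 27 genes, like this one, were highest in PBS tumor 2. Tagln, a smooth muscle and myofibroblast marker, measured 5.56, 7.97 and 4.77 FPKM in the PBS tumors and 2.35, 3.22 and 2.77 FPKM in the treated tumors without overlap, and so did Acta2 and Rgs5, a pericyte marker, at -0.46 and -0.57. Mmp11, a matrix protease of stroma, measured 1.81, 4.00 and 1.84 FPKM in the PBS tumors and 1.08, 1.33 and 0.784 FPKM in the treated tumors, a log2 fold change of -0.74 ± 0.30 (SE, n = 3). Endothelial genes had a median of -0.33, where Vwf, the vessel wall adhesion protein, measured 4.86, 4.88 and 2.83 FPKM in the PBS tumors and 2.66, 1.70 and 2.35 FPKM in the treated tumors. With the epidermis score as a covariate the medians of the fibroblast and endothelial lists were 0.10 and 0.16, and without PBS tumor 2 they were -0.13 and -0.05.

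**Figure D4:**
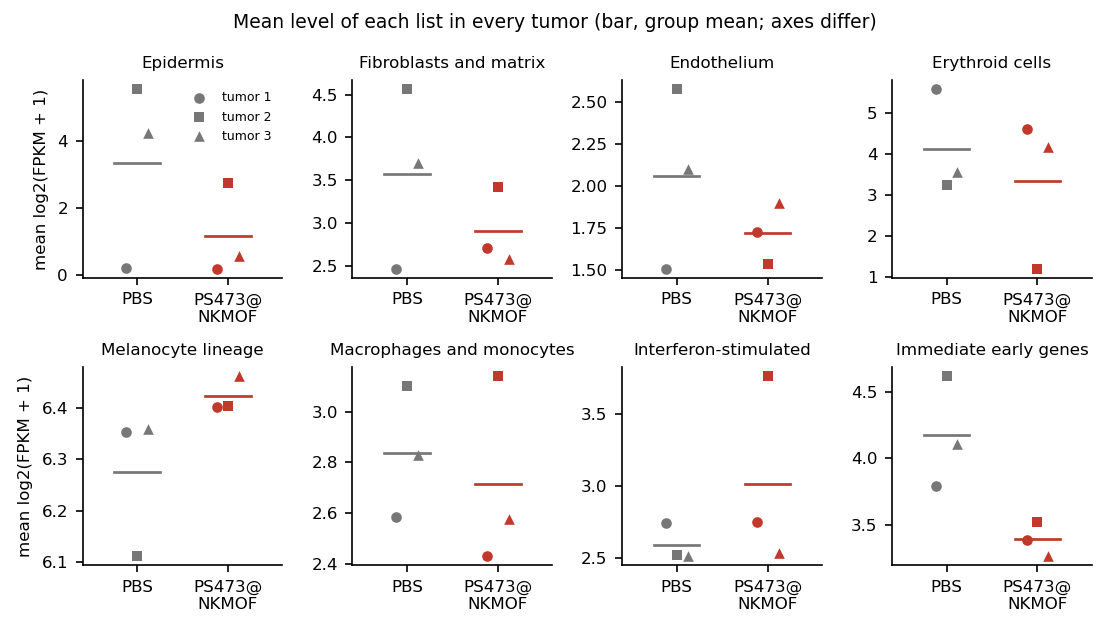
Mean log2(FPKM + 1) over all members of 8 lists (y axes, which differ between panels) in each of the 3 PBS tumors (gray) and 3 PS473@NKMOF-101-[Mn] tumors (red), with the tumor number as the symbol and the group mean as a bar. The groups are separate for the melanocyte and immediate early lists, and in the other 6 panels they overlap.

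Blood and RNA composition also varied within groups. The globin gene Hba-a1 measured 5339, 451 and 667 FPKM in the PBS tumors and 2769, 15.4 and 1541 FPKM in the treated tumors, lowest in treated tumor 2. The 5 tested erythroid genes had a median of -1.51, which was 0.66 without that tumor and -0.23 without PBS tumor 1. Mitochondrially encoded genes had a median of 0.32 with 11 of 13 higher. Leaving out 1 tumor gave -0.10 (treated tumor 3) to 0.67 (treated tumor 1), and array weights gave -0.17. COX1, a subunit of the respiratory chain, measured 3432, 3120.0 and 4306 FPKM in the PBS tumors and 2823, 4759 and 6573 FPKM in the treated tumors. Ribosomal protein genes had lower estimates in 47 of 51, with a median of -0.16 that turned to 0.11 without PBS tumor 1. Rpl32, of the large subunit, measured 3298, 1423 and 1444 FPKM in the PBS tumors and 1543, 1578 and 1693 FPKM in the treated tumors, where PBS tumor 1 stood above the other 5. Genes shorter than 300 bases, 514 of the 12357 tested, had a median of -0.35, which turned to 0.03 without treated tumor 3. They made up 14 of the 36 lower genes beyond 2-fold at an unadjusted p under 0.05. The part of these differences in other results was not tested.

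Of the 10 largest higher estimates among genes at an unadjusted p under 0.05, 5 belong to the interferon or RNA sensing lists, namely Ifit3, Dhx58, Irgm1, Rigi and Oas1a. Batf2, an interferon-induced transcription factor outside the lists, measured 4.33, 4.22 and 4.80 FPKM in the PBS tumors and 7.11, 15.2 and 4.67 FPKM in the treated tumors. Coq8a, a kinase-like protein of coenzyme Q synthesis, measured 11.4, 9.26 and 10.6 FPKM in the PBS tumors and 15.0, 17.4 and 19.97 FPKM in the treated tumors, a log2 fold change of 0.69 ± 0.28 (SE, n = 3) in which treated tumor 3 and not tumor 2 was highest. The unnamed transcript 4933412E12Rik measured 1.04, 1.06 and 0.946 FPKM in the PBS tumors and 1.90, 3.44 and 1.38 FPKM in the treated tumors, also without overlap.

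**Figure D5:**
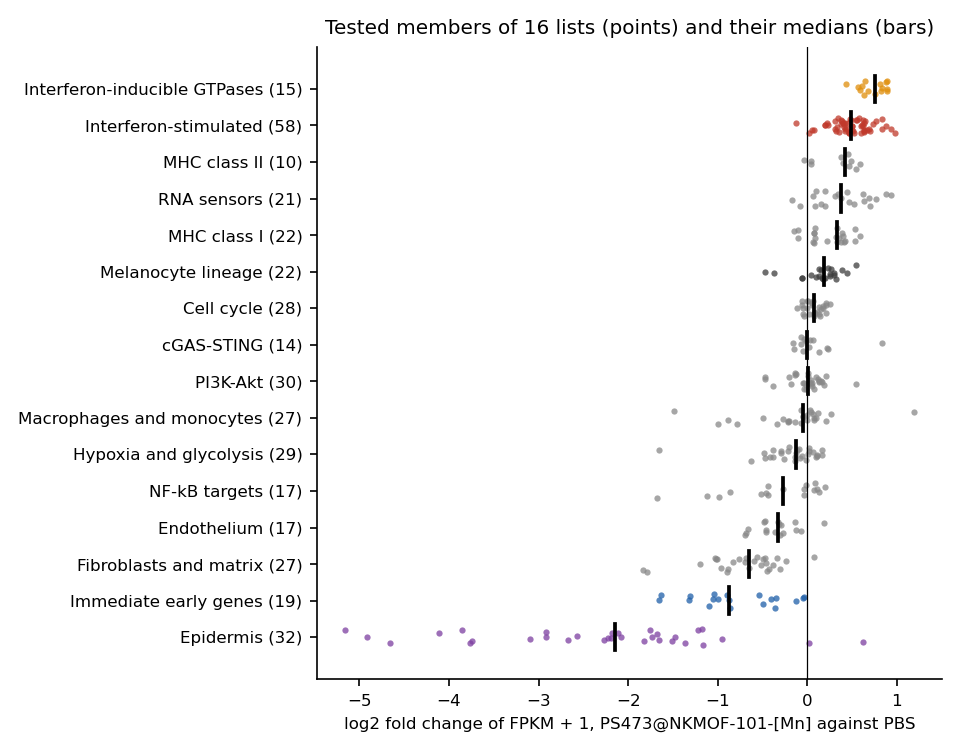
Log2 fold change of PS473@NKMOF-101-[Mn] against PBS for every tested member (points) of 16 lists, with the number tested in brackets and the median as a bar. Medians run from 0.76 for the interferon-inducible GTPases to -0.88 for the immediate early genes and -2.15 for the epidermis genes.

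The other treatments shared the same PBS tumors, so their values are set side by side and not compared as independent results. For the 58 interferon-stimulated genes the median log2 fold change against PBS was 0.05 for NKMOF-101-[Mn], 0.40 for M5@NKMOF-101-[Mn], -0.45 for Free PS473 and 0.24 for PS473@CPs, beside 0.49 for PS473@NKMOF-101-[Mn]. Ifit3 was 8.98 to 11.3 FPKM in the 3 M5@NKMOF-101-[Mn] tumors and 4.49 to 7.55 FPKM in the empty framework tumors, beside 8.14, 25.9 and 7.09 FPKM in the PS473@NKMOF-101-[Mn] tumors. Cd274 was 20.98 to 28.2 FPKM with M5@NKMOF-101-[Mn], 14.1 to 15.9 with NKMOF-101-[Mn], 11.9 to 24.5 with PS473@CPs and 11.7 to 14.0 with Free PS473. Each of these ranges overlaps the 9.74 to 32.9 FPKM of the PS473@NKMOF-101-[Mn] tumors. The direct contrast of active and mutant ribozyme in the framework had 0 genes past the adjusted threshold (smallest adjusted p 1) and 73 of 12357 at an unadjusted p under 0.05 (limma).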

How the data were processed

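RNA from 18 tumors, 3 in each of 6 groups, was measured by poly(A) RNA-seq. The authors deposited 1 table of FPKM values for 41079 genes. The genome build in the submitters' processing notes is GRCm39, and the aligner and counter are not given in the sources used here. FPKM are not counts, so values were tested on a log scale, log2(FPKM + 1), with limma 3.58.1 in R 4.3.3. The fit held all 18 tumors and 6 group means, with a trend in the prior variance and 12 residual degrees of freedom, over the 12357 genes whose mean reached 1 FPKM. A gene was called at a Benjamini-Hochberg adjusted p under 0.05 and a change beyond 2-fold. Tables and figures were made with Python 3.11.15, numpy 2.4.6, pandas 2.3.3 and matplotlib 3.10.9, and the fit was tested on simulated data.

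The comparison, its members and the 45 gene lists were chosen with earlier results of these data known, so no p-value was adjusted over a list alone and lists are described by counts and medians. Named were Cd274, up to 3 most abundant tested genes of each list and role, list members at an unadjusted p under 0.05 or without overlap, the 10 largest changes each way and the genes the study measured by other assays. A list level is the mean log2(FPKM + 1) of its members. Exact 0 values mean only that a gene is listed at 0. Fragment depth was recovered from the steps between low FPKM values, 17212000 to 28401000 in all tumors, and no count test was run. Alternatives covered the pseudocount, the filter, the scaling, the samples fitted, the variance prior, array weights, a replicate block and each tumor left out. An epidermis covariate, and leaving out PBS tumor 2 and treated tumor 2 together, were chosen after seeing the data. Promoter windows and the ribozyme site come from GRCm38 references, and no coordinates were converted. Some items are not reported here.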

Additional observations from a re-analysis of the deposited data

How the results depend on the processing

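With limma, 0 genes were called under every alternative fit. With no filter, 2 genes passed the adjusted p (smallest 0.00229) with a change within 2-fold. In the main fit, with the filter at 1 FPKM, 37 genes (1 higher, 36 lower) passed when the unadjusted p was used with the 2-fold limit. The 260 genes at an unadjusted p under 0.05 became 472 with a filter at 0.1 FPKM, 917 with no filter, 164 with the 2 groups fitted alone and 617 with array weights. Leaving out 1 tumor gave 164 (PBS tumor 2) to 667 (PBS tumor 1), with 437 without PBS tumor 3, 520 without treated tumor 1 and 550 without treated tumor 2. The Cd274 log2 fold change ran from -0.30 to 0.53 when 1 tumor was left out, and it turned negative without PBS tumor 3 (-0.05), without treated tumor 2 (-0.30) and without PBS tumor 2 and treated tumor 2 together (-0.32). List medians were above 0 for 21 of 45 lists, and for 11 to 23 when 1 tumor was left out, for 30 with the epidermis covariate and for 27 after quantile normalization, with 11 both without treated tumor 2 and without PBS tumor 2 and treated tumor 2 together. Of 340 values for 20 named genes, 337 kept their direction, and the other 3 were those of Cd274. Apart from Cd274, these genes were named with their changes in the same tumors known, so a kept direction was largely built in. The number of these values that passed the adjusted threshold was 0. With the replicate number as a block, 0 genes were called and 224 had an unadjusted p under 0.05. Deviations of tumors with the same number correlated at 0.313, 0.373 and 0.006, and those with different numbers at -0.402 to 0.217. With 3 tumors per group these values cannot decide whether the numbers pair the tumors. The causes of these shifts were not tested, apart from the number of genes or tumors that an alternative itself changes. Depth is known only through the recovered steps, and genes under a mean of 1 FPKM were tested only with the lower filter or none.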
